A study of Mus musculus with 8 samples.

Results

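The 10 genes described here lie side by side on mouse chromosome 7, around the growth factor gene Igf2 and the leukocyte gene Lsp1. They were taken by name and position: Ctsd, Syt8, Tnni2, Lsp1, Tnnt3, Mrpl23, H19, Igf2, Ins2 and Th, 10 of 47069 genes with counts. Igf2 and Lsp1 were chosen by their counts, which were already known to go up over the 4 time points of these libraries, so their values are given as a description, with no test. The other 8 were taken for where they lie, and the question is which of them moved with Igf2 and Lsp1.

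Igf2 and H19 are the textbook pair of imprinted genes. In mouse fetal tissues Igf2, which encodes a secreted growth factor that signals through the IGF1 receptor and the insulin receptor, is read from the paternal copy, and H19, a long noncoding RNA, from the maternal copy. Both use the same downstream enhancers, and a methylated control region between them, bound by CTCF on the maternal copy, decides which gene the enhancers reach. Lsp1 encodes an actin-binding protein of white blood cells. Tnni2 and Tnnt3, on either side of Lsp1, encode troponins of fast skeletal muscle.

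RNA was sequenced from GFP-positive MLL-AF9 acute myeloid leukaemia cells, labelled TetO-Klf4-AML, in which doxycycline induces the transcription factor gene Klf4. They were sorted from leukaemic mice, with bone marrow as the tissue and C57BL/7 as the strain in the labels. There are 4 groups of 2 libraries, 0h, 6h, 12h and 24h, which differ by time point alone, and all carry the MLL-AF9 fusion and the TetO-Klf4 transgene. The labels name neither the event from which the hours count nor whether replicates came from separate mice, so a p-value here covers library-to-library spread, which may be technical. No doxycycline control lacking the transgene was analysed.

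Libraries held between 20394546 and 26041347 gene counts. Klf4, the induced gene, stood at 2.71 and 4.42 CPM at 0h, then 152 and 151 (6h), 115 and 111 (12h) and 76.9 and 78.8 (24h) (CPM are counts scaled to a library of 1000000, with TMM factors). All 10 marker genes of myeloid and MLL-AF9 leukaemia cells were tested, with Ptprc between 320 and 360 CPM and Hoxa9 between 398 and 457 CPM in all 8 libraries. Of the same markers Csf1r was low throughout, between 0.337 and 1.51 CPM, Kit stood at 84.1 and 85.0 CPM at 24h against 101.5 and 96.8 CPM at 0h, Elane at 105.3 and 104.7 CPM against 129 and 130 CPM, and Itgam at 59.7 and 67.5 CPM against 51.9 and 47.0 CPM. Of 7 stromal marker genes none passed the filter on low counts, and together they came to 0.302 and 0.230 CPM at 0h, then 0.382 and 0.551 (6h), 0.421 and 0.376 (12h) and 0.265 and 0.323 (24h). The 5 endothelial markers summed to between 139 and 145 CPM at 24h and between 182.5 and 187 CPM at 0h, almost wholly from Pecam1, with Kdr at 0, and their part in the results was not tested. The 6 erythroid markers summed to between 2.16 and 2.95 CPM in all 8 libraries. Of 5 T and B cell markers 4 were at 0 in all libraries. The remaining one, Cd79a, had 4 and 5 counts at 0h, then 10 and 8 (6h), 19 and 24 (12h) and 21 and 21 (24h). Cd79a was thus higher at later times, and its part in the results was not tested. Fragments counted to no gene made up 5.47% of all fragments at 0h and 9.15% at 24h on average.

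The sequences held with the most matches to a short motif are shown first, from in front of Igf2 and of its neighbour Mrpl23. The promoter table from RefSeq (GRCm38.p6, 250 bases before to 50 bases after a transcript start) held 5 of the 10 members, namely Ctsd, Syt8, Mrpl23, Igf2 and Th. Igf2 has 4 starts there, numbered from the most upstream, and gene counts do not tell which of them was used. Start 4 is at chr7:142657447-142657746 and start 3 at chr7:142658755-142659054, both on the minus strand, and the start of Mrpl23 is at chr7:142532782-142533081 on the plus strand. Capitals mark CACCC or its reverse complement GGGTG, a short box that zinc fingers of the KLF family are known to bind.
Igf2, start 4: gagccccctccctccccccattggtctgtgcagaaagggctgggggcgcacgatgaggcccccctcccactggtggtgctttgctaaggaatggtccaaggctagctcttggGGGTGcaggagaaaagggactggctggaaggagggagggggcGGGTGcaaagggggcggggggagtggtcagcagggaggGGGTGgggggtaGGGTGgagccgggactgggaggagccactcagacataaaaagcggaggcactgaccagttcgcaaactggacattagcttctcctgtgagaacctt
Igf2, start 3: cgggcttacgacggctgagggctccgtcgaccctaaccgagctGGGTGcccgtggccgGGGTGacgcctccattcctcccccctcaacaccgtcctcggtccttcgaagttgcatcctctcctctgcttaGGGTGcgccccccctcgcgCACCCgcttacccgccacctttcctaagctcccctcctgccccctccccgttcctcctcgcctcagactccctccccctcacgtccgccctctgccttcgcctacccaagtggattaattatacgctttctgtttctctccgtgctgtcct
Mrpl23: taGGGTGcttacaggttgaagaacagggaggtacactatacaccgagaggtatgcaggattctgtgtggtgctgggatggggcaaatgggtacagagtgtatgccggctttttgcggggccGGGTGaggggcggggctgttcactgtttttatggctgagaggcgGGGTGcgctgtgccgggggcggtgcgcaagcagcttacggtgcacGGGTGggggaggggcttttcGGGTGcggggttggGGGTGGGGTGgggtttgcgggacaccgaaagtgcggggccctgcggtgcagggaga

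The windows of Igf2 starts 3 and 4 held 4 matches each and the Mrpl23 window held 7. That of Igf2 start 1 held 1 match and that of start 2 held 0, the Ctsd window 0, the Th window 3 and the 3 Syt8 windows 3, 2 and 1. Of 32851 RefSeq promoter windows of the same length, 57.5% held at least 1 match on either strand. The longer form GGGNGTGG, searched on both strands and able to overlap the shorter one, was found 2 times at Igf2 start 4, 1 time at Mrpl23, 2 times at Th and 1 time at Syt8 start 2, and in 17.6% of all windows. No window was held for Lsp1, and the start of Igf2 in use is not known. Whether the motif had a part in any change was not tested. The matches describe letters, not binding.

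**Figure D1:**
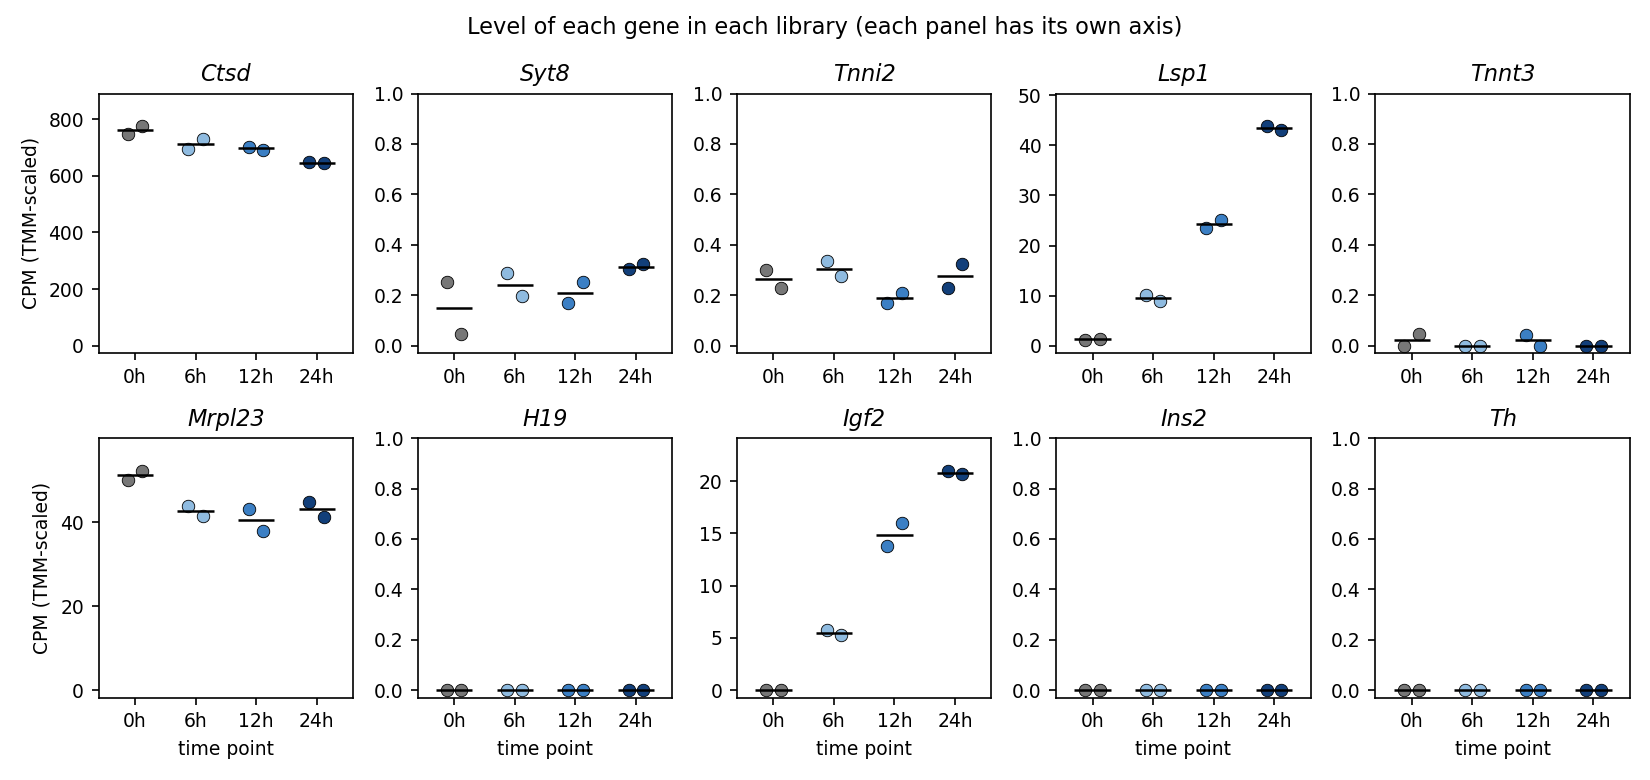
TMM-scaled CPM of the 10 genes in each of the 8 libraries, with 1 panel per gene in the order of the chromosome, time point on the horizontal axis, dots for libraries and bars for the mean of 2. Each panel has its own vertical axis from 0. Lsp1 and Igf2 climb at every step, Ctsd has its lowest values at 24h, Mrpl23 is lower at 6h, 12h and 24h than at 0h, and the other 6 stay between 0 and 0.334 CPM.

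Igf2 was at or next to 0 counts at 0h and had its highest level at 24h. It lies at 142650766 to 142666816 on the minus strand (build mm10). Its counts were 0 and 1 at 0h, then 120 and 135 (6h), 327 and 383 (12h) and 554 and 512 (24h). These correspond to 0 and 0.0460 CPM at 0h, then 5.73 and 5.31 (6h), 13.8 and 16.0 (12h) and 21.0 and 20.7 (24h). The libraries of each time point lay above both libraries of the time before, with no overlap at any step. Over both libraries, 24h held 1066 counts against 1 at 0h, which after scaling is 867 times as much (95% counting interval 155 to 34260). At 12h the sum was 710 counts, 619 times the 0h level (111 to 24500). In a bulk sample, more cells with the transcript and more transcript per cell cannot be told apart.

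Lsp1 lies 206.0 kb away, start to start, at 142460809 to 142494867 on the plus strand. Unlike Igf2 it was already present at 0h, at 1.21 and 1.38 CPM, from 24 and 30 counts. Later values were 10.1 and 9.01 CPM (6h), 23.5 and 25.1 CPM (12h) and 43.8 and 43.2 CPM (24h), again with no overlap between successive times. The ratio of summed counts against 0h was 7.31 at 6h (95% counting interval 5.50 to 9.89), 18.7 at 12h (14.2 to 25.1) and 33.5 at 24h (25.6 to 44.8). All intervals here cover counting error only, not the spread between libraries. For Igf2 and Lsp1, which were chosen for their rise, they are no test of that rise.

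Klf4 had its highest level at 6h, and Igf2 and Lsp1 had theirs at 24h. Igf2 had reached 26.5% of its own 24h mean at 6h and 71.5% at 12h, Lsp1 21.9% and 55.9%, while Klf4 stood at 194% and 145% of its 24h mean. Set against each other within a library, Igf2 had 0 and 0.0333 counts for each Lsp1 count at 0h. Later ratios were 0.569 and 0.590 (6h), 0.586 and 0.637 (12h) and 0.479 in both 24h libraries. The 95% counting intervals of these ratios were 0 to 0.166 and 0.000817 to 0.2005 for the 0h libraries. They were 0.451 to 0.715 and 0.473 to 0.732 for the 6h libraries and 0.510 to 0.673 and 0.559 to 0.726 for the 12h libraries. For the 24h libraries they were 0.432 to 0.530 and 0.430 to 0.533. The ratio was lower in both 24h libraries than in any 6h or 12h library, although the intervals of the 24h libraries overlap with those of both 6h libraries and of the lower 12h library.

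H19 had 0 counts in all 8 libraries. It lies 88.7 kb from the Igf2 start, at 142575529 to 142578143, with 2460 exon bases. Only 225 of these are shared with other rows of the span, so most of the gene could be counted without ambiguity. With 0 counts over all libraries, a level of up to 0.0161 CPM is allowed, and over both 24h libraries up to 0.0586 CPM, where Igf2 averaged 20.8 ± 0.210 CPM (SD, n = 2). Mir675, the miRNA gene inside H19, and Mir483, inside an intron of Igf2, were also at 0, although libraries of this kind are not made to hold mature miRNAs. Nctc1, a noncoding transcript between Mrpl23 and H19, had at most 2 counts in a library.

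Ins2 and Th, the members beyond Igf2, also had 0 counts in all 8 libraries. Ins2 encodes insulin, and its annotated start lies 76.6 kb from the Igf2 start. The annotated gene runs from 142678656 to 142743381 on the minus strand, so its other end is much nearer to the Igf2 start, at 142666816. Th encodes tyrosine hydroxylase, the rate-limiting enzyme of catecholamine synthesis. Their allowed level is the same as that of H19. Of 6 islet marker genes 5 were at 0 in all libraries (Ins1, Gcg, Sst, Ppy and Iapp). Among markers of catecholamine cells, Dbh and Slc6a3 were at 0 in all libraries and Pnmt had at most 2 counts, whereas Ddc had 1 to 8 counts and Slc18a2, the vesicular monoamine transporter gene, 34 to 75 counts in every library.

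The genes flanking Lsp1 stayed near silence. Syt8, a synaptotagmin gene 25959 bases from the Lsp1 start, had 5 and 1 counts at 0h, then 6 and 5 (6h), 4 and 6 (12h) and 8 and 8 (24h). The ratio of its summed counts at 24h to those at 0h was 2.17, with a 95% counting interval of 0.806 to 6.77. Tnni2, 19001 bases from the Lsp1 start, had 6 and 5 counts at 0h, then 7 and 7 (6h), 4 and 5 (12h) and 6 and 8 (24h), a 24h ratio of 1.04 (0.436 to 2.52). Tnnt3, 38.0 kb on the other side, had 2 counts in all, 1 at 0h and 1 at 12h. The 24h and 0h libraries of Tnni2 overlapped, while those of Syt8 did not, at 8 and 8 counts at 24h against 5 and 1 at 0h, with a counting interval that includes 1. Of the 14 skeletal muscle markers 5 had 0 counts in all libraries, among them the troponin partner Tnnc2 and the myosin genes Myh1 and Myh4, and the list summed to between 17.0 and 19.95 CPM, mostly from Tnnt1 and Mylpf. Within that list Atp2a1, the gene of the fast-muscle calcium pump, went the other way from the flat sum, with 4 and 8 counts at 0h, then 22 and 24 (6h), 41 and 42 (12h) and 49 and 58 (24h). It moved with Lsp1 and Igf2 over the 4 time points, and its part in their values was not tested.

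**Figure D2:**
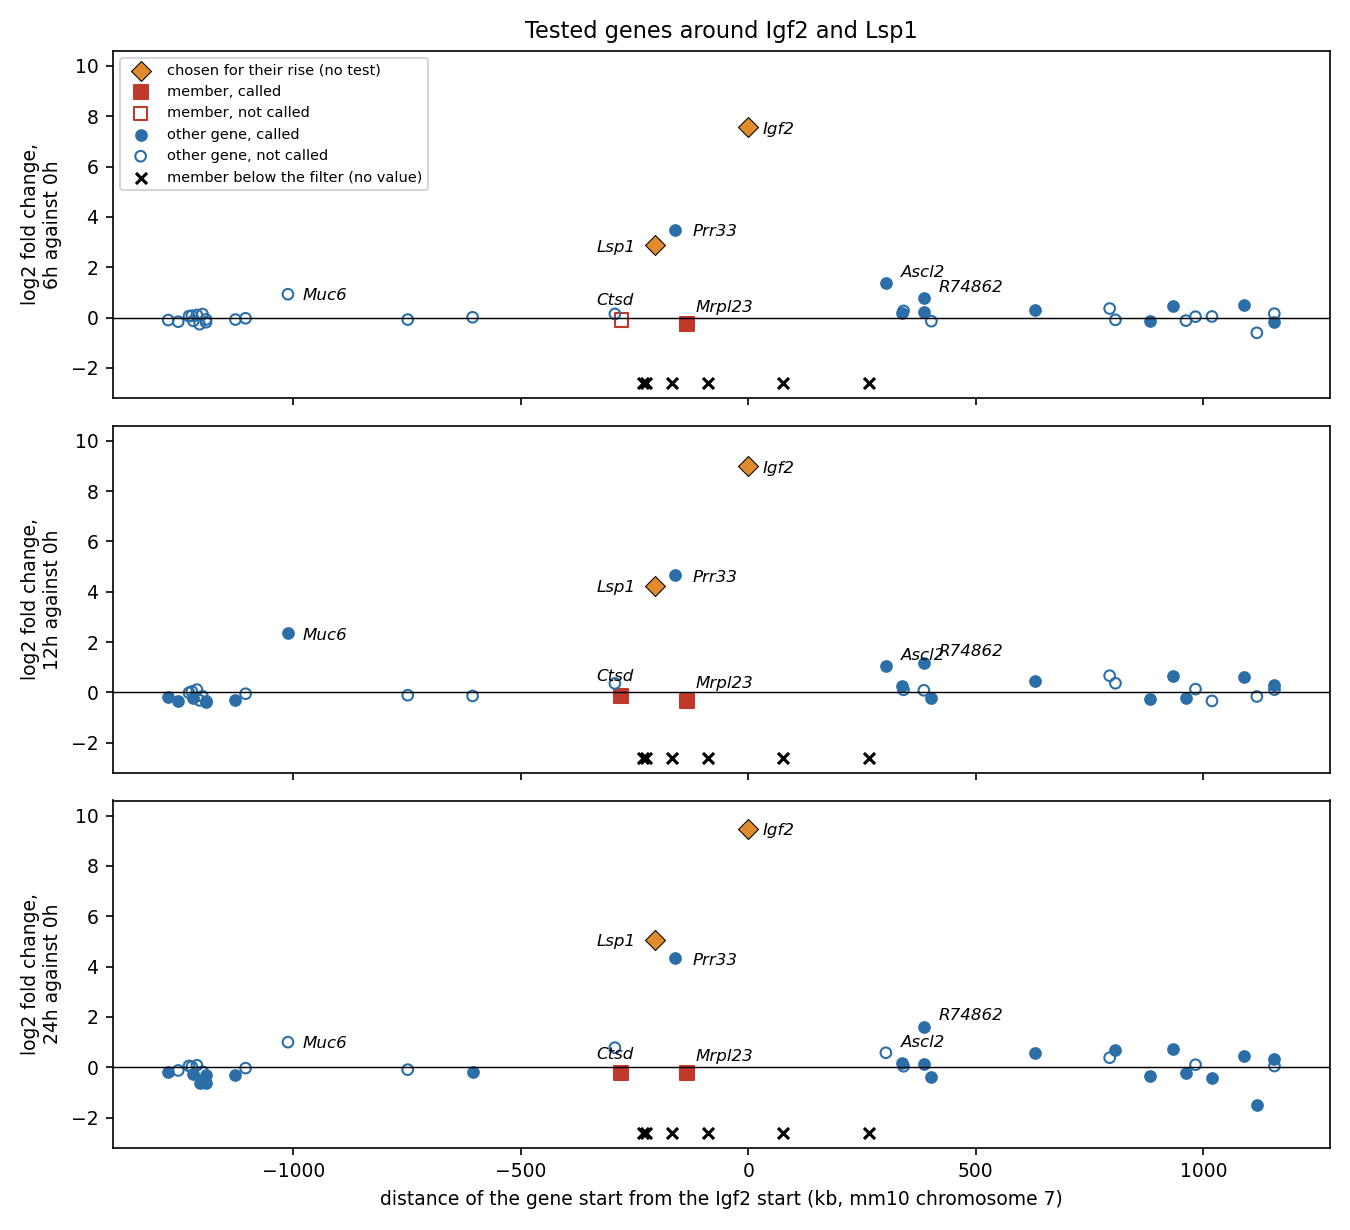
Log2 fold change against 0h (vertical axis) of the tested genes within 1000000 bases of the span, by the distance of their start from the Igf2 start in kb (horizontal axis), at 6h, 12h and 24h from top to bottom. Filled symbols were called at an adjusted p under 0.05, open ones were not, diamonds are Igf2 and Lsp1 and crosses mark members without a value. The heights of Igf2 and Prr33 rest on 1 count at 0h. Igf2, Lsp1 and Prr33 stand far above their neighbours.

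Only 4 of the 10 members passed the filter on low counts, and Igf2 did so through its later libraries alone. Among the other 8 members 2 were tested, Ctsd and Mrpl23, and 6 were below the filter. At 6h 0 were called higher and 1 lower, against 9.74% higher, 8.58% lower and 18.3% either way of all 14263 tested genes. At 12h 0 were higher and 2 lower, where 22.1% of all genes were called higher, 21.6% lower and 43.7% either way. At 24h 0 were again higher and 2 lower, beside 26.1% higher, 24.8% lower and 50.9% either way. None of the 8 was called higher against 0h at any time. For 12h against 6h edgeR's quasi-likelihood test and DESeq2 called 0 of the 2, and 0 had an unadjusted p under 0.05, where edgeR called 10.9% of all genes higher, 9.79% lower and 20.7% either way. For 24h against 12h both tools again called 0, 1 (Ctsd) had an unadjusted p under 0.05, and 3.41% of all genes were called higher, 3.04% lower and 6.46% either way.

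Ctsd encodes cathepsin D, an aspartic protease of lysosomes, and was the most abundant member throughout. It stood at 748 and 775 CPM at 0h, then 694 and 730 (6h), 702 and 692 (12h) and 649 and 644 (24h). The 0h libraries were above all others. The log2 fold change against 0h was -0.10 ± 0.04 at 6h (SE; adjusted p = 0.099), -0.13 ± 0.04 at 12h (adjusted p = 0.011) and -0.24 ± 0.04 at 24h (adjusted p = 8e-06, edgeR's quasi-likelihood test). The 12h call was lost without 0h replicate 2 (adjusted p = 0.13) or without 12h replicate 2 (adjusted p = 0.087), and a 6h call was gained without 6h replicate 2 (adjusted p = 0.018). For 24h against 12h, where edgeR gave -0.11 (adjusted p = 0.11), a call was gained when either 6h library was left out (adjusted p = 0.023 and adjusted p = 0.032).

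Mrpl23 encodes a protein of the mitochondrial ribosome and lies between Lsp1 and H19, 71.9 kb from the Lsp1 start. It had 50.1 and 52.2 CPM at 0h, then 43.8 and 41.5 (6h), 43.2 and 37.9 (12h) and 44.9 and 41.3 (24h). All later libraries were below both 0h libraries, and they overlapped among themselves. The log2 fold change was -0.26 ± 0.07 at 6h (adjusted p = 0.0032), -0.34 ± 0.07 at 12h (adjusted p = 6.4e-05) and -0.25 ± 0.06 at 24h (adjusted p = 0.0016). Without 0h replicate 2 the 6h value was -0.23 with an adjusted p of 0.067.

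Per exon length, the order of the members at 24h was Ctsd, Mrpl23, Lsp1, Igf2, Tnni2 and Syt8, followed by the 4 genes at 0. In TPM (transcripts per 1000000, from GENCODE M21 exon lengths, which join all isoforms) Ctsd stood at 927 ± 0.976, Mrpl23 at 29.7 ± 1.57, Lsp1 at 28.3 ± 0.0980 and Igf2 at 12.3 ± 0.0401 TPM (SD, n = 2). Mrpl23 and Lsp1, at 30.9 and 28.6 TPM against 28.4 and 28.3 TPM, were closer than the spread of Mrpl23, and Tnni2 (0.509 and 0.731 TPM) overlapped with Syt8 (0.536 and 0.578 TPM). The order depends on the joined lengths, 4883 bases for Mrpl23 and 5174 for Lsp1, which may differ from the transcripts present. At 0h Lsp1 had 0.737 and 0.831 TPM and Igf2 0 and 0.0251 TPM. Of all tested genes 61% had a lower mean TPM at 24h than Lsp1, and 43.4% a lower one than Igf2.

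Within the span that the members cover, 10 other rows were counted, and 1 of them, Prr33, passed the filter. It was singled out after its values were seen. Prr33 is annotated as a lincRNA on the minus strand, from 142491074 to 142506771, so it runs across the end of Lsp1 with no shared exon base. Its counts were 0 and 1 at 0h, then 5 and 10 (6h), 18 and 17 (12h) and 15 and 15 (24h). The ratio of summed counts to 0h was 13.5 at 6h (95% counting interval 2.07 to 567), 30.5 at 12h (5.13 to 1240) and 24.4 at 24h (4.05 to 995). Like Igf2 it passed the filter through its later libraries alone, so its values are a description and no p-value is given. For each Lsp1 count there were 0.0323 and 0.0283 Prr33 counts at 12h and 0.0130 and 0.0140 at 24h. The strand setting of the counting is not given in the sources used here, so reads from Lsp1 introns and from Prr33 cannot be told apart. A further 4 gene models of the span in GENCODE M21 were not analysed here, among them Gm49394, which shares 3596 exon bases with Igf2. The remaining 9 rows had at most 7 counts in a library, Igf2os, the antisense gene of Igf2, among them with 2.

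**Figure D3:**
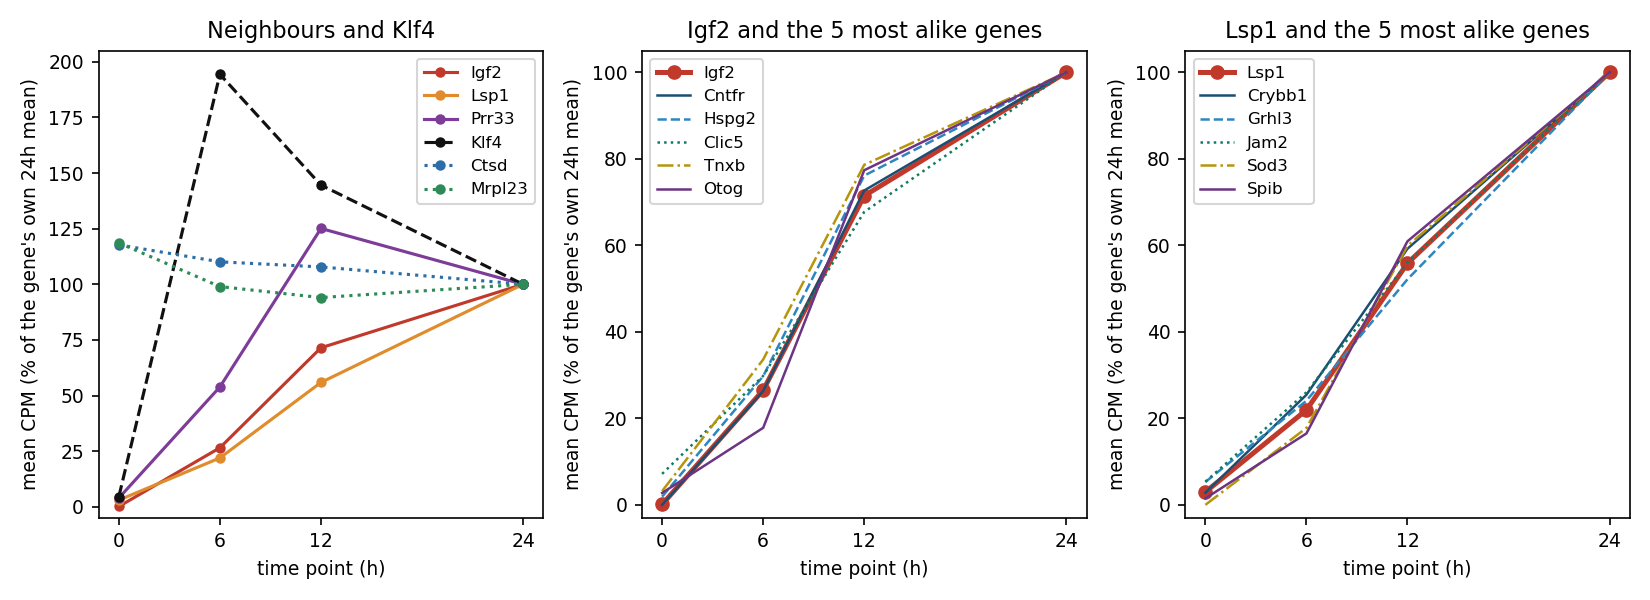
Mean CPM as a percentage of each gene's own 24h mean (vertical axis) at 0h, 6h, 12h and 24h (horizontal axis, h), for neighbours and Klf4 (left), Igf2 with its 5 most alike genes (middle) and Lsp1 with its 5 most alike genes (right). Klf4 peaks at 6h, at 194% of its 24h mean, Prr33 at 12h at 125%, and Igf2 and Lsp1 have their highest mean at 24h.

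To see which genes elsewhere followed the same time course, 11363 tested genes with a mean of at least 1 CPM at 24h were ranked. Predicted gene models (symbols of Gm and digits) and rows without a GENCODE M21 name were left out. The rank was set by the largest difference in percentage points of their own 24h mean at 0h, 6h and 12h. The most alike to Igf2 was Cntfr, a subunit of the ciliary neurotrophic factor receptor, with a largest difference of 1.22 points. It had 0 counts in both 0h libraries, then 0.764 and 0.511 CPM (6h), 1.47 and 2.05 CPM (12h) and 2.46 and 2.38 CPM (24h). It was followed by Hspg2 (4.67 points), the gene of the matrix proteoglycan perlecan, Clic5 (7.06), Tnxb (7.16), the gene of the matrix protein tenascin X, and Otog (8.69). None of the 5 lies near Igf2: they are on chromosomes 4, 17 and 7, and Otog, on chromosome 7, starts at 46240987.

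For Lsp1 the most alike genes were Crybb1 (3.51 points), Grhl3 (3.72), Jam2 (4.09), Sod3 (4.15) and Spib (5.43). Jam2 encodes a junctional adhesion molecule, Sod3 the extracellular superoxide dismutase and Spib a relative of the myeloid and lymphoid transcription factor PU.1. Sod3 had 8.59 and 7.59 CPM at 24h against 0 counts in both 0h libraries, whereas Grhl3 had 8.29 and 7.07 CPM at 24h against 0.352 and 0.460 CPM at 0h. Among the 11363 genes, Lsp1 ranked 37 in likeness to Igf2, with 15.6 points, and Igf2 ranked 39 in likeness to Lsp1. The 2 neighbours thus ranked high with each other over these 4 time points, without being the closest match. Some genes ranked above them rest on few counts, such as Cntfr with 16 and 13 at 6h, and the ranking carries no test.

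With Prr33, 35 other genes in the span or within 1000000 bases on either side of it were tested. At 24h 9 of them were higher, 12 were lower and 14 were not called, so 60% were called, beside 50.9% of all genes, and their median log2 fold change was 0.04, beside 0.02 over all genes. At 6h 8 were higher and 2 lower, or 28.6% called, beside 9.74% higher and 8.58% lower of all genes. At 12h 9 were higher and 9 lower, or 51.4% called, beside 22.1% higher and 21.6% lower of all genes. Prr33 is counted among the higher genes at 6h, 12h and 24h, and Muc6, with 2 and 4 counts at 0h, among those at 12h. Both passed the filter through later libraries alone, so these calls are a description. The 6 called with the smallest adjusted p at 24h were Cars, Polr2l, Nap1l4, R74862, Osbpl5 and Kcnq1ot1. Their log2 fold changes at 24h ran from -0.61 for Polr2l to 1.61 for R74862, far from the change of Igf2 and Lsp1.

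On the far side of Th lies a second imprinted domain, controlled by the noncoding RNA Kcnq1ot1, which in mouse silences neighbours on the paternal copy. Of 16 listed genes of it 13 were tested, and at 24h 6 were higher, 4 were lower and 3 were not called, with a median log2 fold change of 0.15. Over all tested genes 26.1% were higher and 24.8% lower at 24h, with a median of 0.02. Kcnq1ot1 had 22.0 and 21.6 CPM at 0h, then 31.0 and 22.9 (6h), 29.7 and 30.1 (12h) and 32.5 and 32.5 (24h). It was higher at 24h by 0.57 ± 0.09 on the log2 scale (adjusted p = 1e-06), but its 6h call (adjusted p = 0.021) was lost with DESeq2 (adjusted p = 0.080), without 6h replicate 1 (adjusted p = 0.71) and on leaving out either 0h library (adjusted p = 0.072 and adjusted p = 0.13). Cars, the cysteinyl-tRNA synthetase gene, had 172 and 165 CPM at 24h, against 101 and 101 CPM at 0h (log2 fold change at 24h 0.75 ± 0.04, adjusted p = 1.1e-16). Osbpl5, a lipid transfer protein gene, was higher by 0.44 ± 0.07 and Nap1l4, a histone chaperone gene, lower by 0.35 on the log2 scale.

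Past Th lies Ascl2, a basic helix-loop-helix transcription factor gene, which is named after its values were seen. The adjusted p-values below do not allow for that choice, so they are a description. Ascl2 had 15 and 22 counts at 0h, then 53 and 53 (6h), 49 and 39 (12h) and 37 and 31 (24h). Its log2 fold change was highest at 6h, at 1.36 ± 0.30 (adjusted p = 0.00088), with 1.05 ± 0.31 at 12h (adjusted p = 0.0053) and 0.58 ± 0.32 at 24h (adjusted p = 0.14, edgeR's quasi-likelihood test). Unlike Igf2 and Lsp1 it did not keep climbing in mean level after 6h, a contrast in time course that was not tested. The 12h call was lost without 0h replicate 1 (adjusted p = 0.068) or 12h replicate 1 (adjusted p = 0.069). R74862, a noncoding transcript between Tspan32 and Cd81 that overlaps the start of Cd81 on the other strand, had 1.11 and 1.38 CPM at 0h, then 2.39 and 1.93 (6h), 2.69 and 3.01 (12h) and 3.33 and 4.36 (24h). Its 24h log2 fold change was 1.61 ± 0.24 (adjusted p = 6.1e-07), and its 6h call (adjusted p = 0.041) was lost with DESeq2 (adjusted p = 0.13), as it was on leaving out either 0h library (adjusted p = 0.23 and adjusted p = 0.088) or 6h replicate 1 (adjusted p = 0.24).

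**Figure D4:**
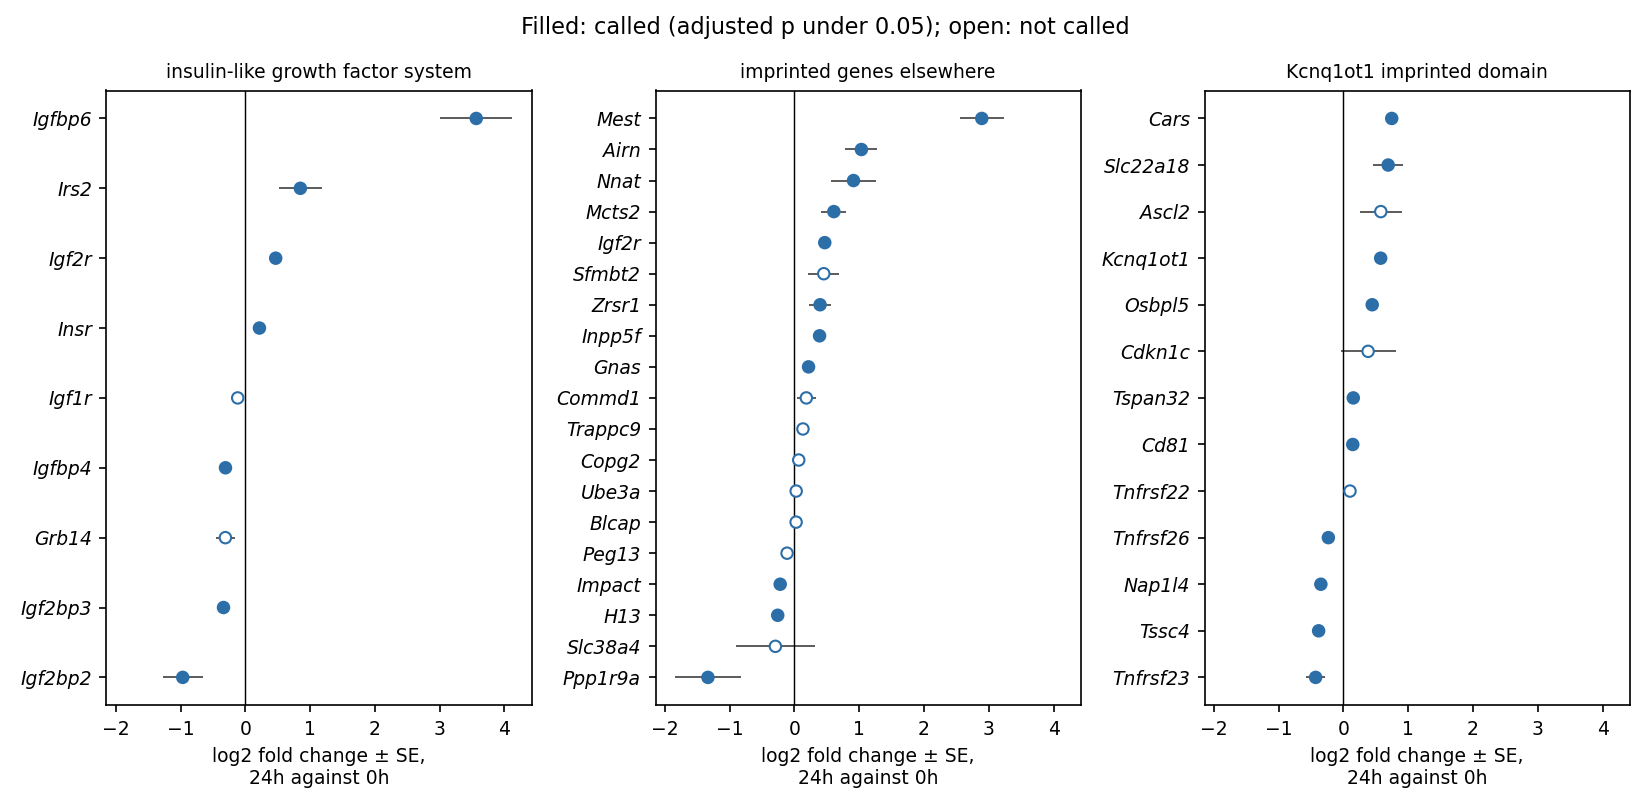
Log2 fold change of 24h against 0h with its SE (horizontal axis) for the tested genes of 3 lists (vertical axis): the insulin-like growth factor system, imprinted genes elsewhere, and the Kcnq1ot1 domain. Filled dots were called at an adjusted p under 0.05. Igfbp6 and Mest stand out at 3.56 and 2.89, and most other genes lie within 1 of 0. Both passed the filter through later libraries, where they are high, so their heights are a description.

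Transcripts of the receptors that bind IGF2 had counts at 0h and at 24h. Of 24 genes of the insulin-like growth factor system 9 were tested, and at 24h 4 were higher, 3 were lower and 2 were not called, with a median log2 fold change of -0.12, where the median of all tested genes was 0.02 and 50.9% were called. Igf1r, the signalling receptor, averaged 29.6 CPM at 24h against 32.2 CPM at 0h and was not called (log2 fold change -0.12 ± 0.07, adjusted p = 0.17). Igf2r, the receptor that carries IGF2 to lysosomes and is itself imprinted, had 216 and 223 CPM at 24h against 161 and 156 CPM at 0h, a rise of 0.47 ± 0.04 (adjusted p = 9.8e-12). Insr, the insulin receptor gene, rose by 0.22 ± 0.07 (adjusted p = 0.0061).

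The binding proteins went both ways. Igfbp6, whose product prefers IGF2 over IGF1, had 2 and 3 counts at 0h, then 1 and 5 (6h), 8 and 7 (12h) and 50 and 26 (24h). Its 24h log2 fold change was 3.56, from 24h libraries that differed, at 1.89 and 1.05 CPM. Igfbp6 passed the filter through its 24h libraries alone, so its values are a description and no p-value is given. It is counted among the 4 genes of the list called higher at 24h, and was not called at 6h or at 12h. Igfbp4 fell to 235 and 239 CPM at 24h, against 280 and 306 CPM at 0h (log2 fold change -0.31 ± 0.04, adjusted p = 3.1e-07). Igf2bp3, an RNA-binding protein gene whose product binds Igf2 transcripts, fell by 0.34 on the log2 scale (adjusted p = 4.8e-07, edgeR's quasi-likelihood test).

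The next list held imprinted genes elsewhere in the genome. Of 45 listed 19 were tested, 8 were higher at 24h, 3 were lower and 8 were not called, with a median log2 fold change of 0.18. The share called either way was near the 50.9% of all genes. More of the list were higher than lower, where all genes gave 26.1% higher, 24.8% lower and a median of 0.02. Mest, a paternally expressed gene of the alpha/beta hydrolase family, had 0.352 and 0.460 CPM at 0h, then 1.29 and 0.905 (6h), 2.44 and 1.63 (12h) and 3.03 and 3.11 (24h). Its 24h log2 fold change was 2.89. With 7 and 10 counts at 0h, Mest passed the filter through its later libraries, where it is high. Its values are thus a description and no p-value is given, although it is counted among the 8 higher. Airn, the noncoding RNA antisense to Igf2r, rose by 1.03 ± 0.25 (adjusted p = 0.00061), and since the strand setting is not given its reads cannot be told apart with certainty from those of Igf2r introns. H13, a signal peptide peptidase gene, fell by 0.26 on the log2 scale (adjusted p = 5.6e-06). Of the same list Dlk1, Plagl1, Peg3 and Meg3 were below the filter.

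A further list held genes that act at imprinted control regions. Of 26 listed genes for CTCF, cohesin and DNA methylation 24 were tested, 6 were higher at 24h, 3 were lower and 15 were not called, with a median log2 fold change of 0.04, where 50.9% of all genes were called. Ctcf itself stood at 197 and 189 CPM at 24h and at 199 and 197 CPM at 0h, a log2 fold change of -0.03 ± 0.04 (adjusted p = 0.54). Dnmt3l, whose product assists DNA methyltransferases, had 14.2 and 13.5 CPM at 24h against 26.3 and 27.99 CPM at 0h, and fell by 0.97 on the log2 scale (adjusted p = 5.2e-12). Vezf1, a zinc finger gene, and Atrx, a chromatin remodeller gene, were higher by 0.32 ± 0.05 and 0.23 ± 0.05, and Mbd3, of a repressor complex, was lower by 0.32 on the log2 scale.

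For Lsp1 the comparison list was actin regulators of leukocytes. All 25 were tested, and at 24h 7 were higher, 11 were lower and 7 were not called, with a median log2 fold change of 0.00, beside 26.1% higher and 24.8% lower of all genes and their median of 0.02. Myo1e, an unconventional myosin gene, had the largest log2 fold change of the list, with 7.87 and 8.60 CPM at 24h against 1.71 and 1.29 CPM at 0h (log2 fold change 2.46 ± 0.19, adjusted p = 1.4e-13). Tmsb10, a thymosin gene, rose by 1.16 ± 0.05, Capg, the gene of an actin-capping protein, by 0.98 ± 0.06, and Flna, the gene of filamin A, by 0.72 ± 0.04, with adjusted p = 5.2e-21 for Tmsb10, adjusted p = 6e-16 for Capg and adjusted p = 2.3e-17 for Flna. None of these 4 reached the 33.5-fold ratio of Lsp1.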

How the data were processed

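The authors deposited raw counts per Ensembl gene, 1 file per library. Per the submitters' processing notes they used STAR, SAMtools 1.3 and HTSeq 2.0.3 with mm10; the STAR version, annotation and strand setting were not given in the sources used here. Per the labels' protocols, RNA came from an RNeasy purification and libraries from a TruSeq PE kit. Files held 47069 gene rows plus 5 summary rows, kept out of library sizes and tests. GENCODE M21 (mm10) named 46574 genes and gave coordinates and exon lengths. No library was a copy of another.

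One edgeR 4.0.16 quasi-likelihood model (R 4.3.3, TMM, filterByExpr) with a mean for each time covered all 8 libraries and 14263 genes. Calls are two-sided, at a Benjamini-Hochberg adjusted p under 0.05 across those genes. The F statistic gave the SEs, and for genes near 0 counts at 0h they are unreliable. Intervals of 95% are exact binomial ones on summed counts, and 3 counts set the level that 0 counts allow; both cover counting error only. Depth, from 20394546 to 26041347 counts, puts 3 counts at 0.115 to 0.147 CPM in a library.

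The members, lists and rules were chosen with earlier results of these data known. Named were all members, the 6 called genes within 1000000 bases and up to 4 genes per list with the smallest adjusted p at 24h, and the 5 genes most alike to Igf2 and to Lsp1; Prr33, Ascl2 and other names were picked after their values were seen. Alternatives were DESeq2 1.42.0, its size factors inside edgeR, no low-count filter, a filter at a mean log2 CPM of 1, a replicate block, each comparison's 4 libraries alone, and leaving out each library.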

Additional observations from a re-analysis of the deposited data

How the results depend on the processing

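Of 70 named gene values, 56 kept their direction and their side of the threshold under every alternative that gave a value. The 70 include Igf2, Lsp1, Prr33, the genes most alike to Igf2 and Lsp1, and genes named for the smallest adjusted p. Values picked for their size tend to keep their side, so the 56 does not measure how stable calls are in general. Of 962 alternative values 17 lost a call, 9 gained one and 3 changed sign, all 3 in differences that were not called. These were Ctsd for 12h against 6h without 6h replicate 2 (0.0050, range without single libraries -0.0696 to 0.0050), Mrpl23 for 12h against 6h without 12h replicate 2 (0.0177, range -0.1714 to 0.0177) and Mrpl23 for 24h against 12h without 12h replicate 2 (-0.0023, range -0.0023 to 0.1862). DESeq2 called 1668 genes at 6h against 0h (2613 with edgeR), 1632 for 12h against 6h (2947) and 450 for 24h against 12h (921). Without single libraries edgeR called 1319 to 2715, 1296 to 3061 and 373 to 1256 genes in these comparisons. Of the 8 other members, 0 to 2 were called at 6h without single libraries, 1 to 2 at 12h and 0 to 1 for 24h against 12h, where 1 (Ctsd) was called with no filter on low counts and 1 (Ctsd) with the 4 libraries of the comparison alone. The cause was not tested. Igf2 and Prr33 had 1 count in all at 0h, which limits the precision of their ratios. Deviations of same-numbered libraries from their time mean, over all tested genes, had correlations from -0.0171 to 0.0211. With 2 libraries per time this check showed no pairing but cannot exclude a shared mouse or preparation. With the replicate block 2495 genes were called at 6h, 6116 at 12h and 7160 at 24h against 0h. The members' counts of calls were then those of the reported fit.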
